A study of Homo sapiens with 27 samples.

Results

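The 54 genes described here encode Golgi glycosyltransferases, and they were taken as all genes whose platform symbol began with GALNT, ST3GAL, ST6GAL, ST8SIA, B3GNT, B3GALT, B4GALT, MGAT or FUT followed by a letter or number of that family. They were 54 of 11963 genes measured by a probe set naming 1 gene, and 92 probe sets reported on them. The families held 10 GALNT, 5 ST3GAL, 4 ST6GAL, 5 ST8SIA, 3 B3GNT, 4 B3GALT, 7 B4GALT, 7 MGAT and 9 FUT genes. The 4 ST6GAL genes were ST6GAL1 and 3 whose symbols begin with ST6GALNAC, which place sialic acid on N-acetylgalactosamine instead of galactose. The only probe set for GALNT4 and 1 of those for GALNT8 named a second gene, so both probe sets were left out and GALNT4 had no value.

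The series measured total RNA of MDA-MB-231 cells, an established line from an invasive human breast cancer, on 27 Affymetrix arrays. Cells received 5SGlcNAc at 50 µM, an inhibitor of the enzyme OGT that attaches O-GlcNAc to intracellular proteins, Thiamet-G at 25 µM, an inhibitor of the enzyme OGA that removes it, or DMSO, the vehicle. Each treatment had 3 arrays at 48 h and 1 array at each of 0, 2, 4, 6, 8 and 24 h. All cells were 1 line in the same medium with serum, and the labels do not say whether the 48 h replicates were separate cultures. The p-values of 48 h therefore rest on a spread between arrays that could be technical. Those of the earlier times rest on how far effects differed between times or between treatment series, not on replicates.

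Golgi glycosyltransferases build the sugar chains of secreted and membrane proteins and of glycolipids, each adding a particular sugar in a particular linkage. GALNT enzymes start mucin-type O-glycans, MGAT enzymes branch N-glycans, B3GNT, B3GALT and B4GALT enzymes extend the chains, and FUT, ST3GAL, ST6GAL and ST8SIA enzymes add fucose or sialic acid. They differ from OGT, which works in the cytoplasm and nucleus, although OGT and the MGAT and B3GNT enzymes draw on the same donor, UDP-GlcNAc. In breast cancer cells altered branching, core fucose and truncated O-glycans are well-known features.

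Values are RMA levels on the log2 scale, and differences are differences of those levels. Array medians ran between 7.68 and 7.76 at 48 h and between 7.43 and 7.53 at the earlier times, and the decimals deposited differed too, so levels were not compared across these sets. The lowest correlation between arrays was 0.997 within 48 h and 0.994 within 0 to 24 h. The labelled line was checked against its markers. VIM, CD44, AXL, CAV1, ZEB1 and S100A4 stood between the 86.7th and 99.9th percentile of genes at 48 h, and SPARC at the 11.8th. Of genes expected low, PGR stood at percentile 3.70 and ESR1 at 35.9, but ERBB2 and GATA3 stood at 65.8 and 65.0. Of 7 measured haematopoietic markers, PTPRC stood lowest, at percentile 4.61, and HBB highest, at 43.8. Of 12 luminal epithelial markers, FOXA1 stood lowest, at 14.6, and KRT18 highest, at 98.7. OGA fell by 1.08 with 5SGlcNAc and rose by 0.62 with Thiamet-G against DMSO, whereas probe sets for OGT moved in opposite directions with 5SGlcNAc (0.86 at the brightest, -1.70 at the second).

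At 48 h, 26 of the 54 members lay at or under the 40th percentile of gene levels and 28 above it. All 4 B3GALT and all 5 ST8SIA genes were among the dim ones, along with 7 of 9 FUT genes, whereas none of the 7 B4GALT and none of the 5 ST3GAL genes was. The deposited values carry no call of presence, so a dim member was not taken as absent. FUT3, FUT5 and FUT6 are close to identical in sequence and some of their probe sets are marked by the maker as cross-hybridising, so their values are uncertain as to the gene.

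After 48 h, 3 glycosyltransferase transcripts were lower with 5SGlcNAc than with DMSO and none was called higher. GALNT6, which attaches N-acetylgalactosamine to serine and threonine to start mucin-type chains, fell most, and FUT8, which places core fucose on N-glycans, and GALNT10, another starter of O-glycans, fell by less. The other 51 members did not pass the threshold, an adjusted p under 0.05 in limma across all genes. In cultured cells, a lower value of these transcripts cannot be told apart from fewer cells that carry them.

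GALNT6 read 9.30, 9.31 and 9.38 in 5SGlcNAc arrays and 9.86 in each of the 3 DMSO arrays. FUT8 read 11.30, 11.33 and 11.35 in 5SGlcNAc arrays, against 11.67, 11.62 and 11.57 in DMSO arrays. GALNT10 read 11.20, 11.24 and 11.27 in 5SGlcNAc arrays, against 11.46, 11.37 and 11.45 in DMSO arrays. In all 3 genes every 5SGlcNAc array lay below every DMSO array. The identical DMSO values of GALNT6 are equal at the 2 decimals deposited, and its test borrowed the spread of other genes. GALNT6 fell by 0.53 ± 0.04 (SE, n = 3 each, limma adjusted p = 0.000102). FUT8 fell by 0.29 ± 0.04 (limma adjusted p = 0.00268). GALNT10 fell by 0.19 ± 0.04 (limma adjusted p = 0.0189), and its dimmer second probe set differed by -0.10, which was not called. The call of GALNT10 was lost when DMSO replicate 1 or 3 or 5SGlcNAc replicate 1 or 2 was left out, with adjusted p-values of 0.0683, 0.0676, 0.0792 and 0.0568 in that order.

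**Figure D1:**
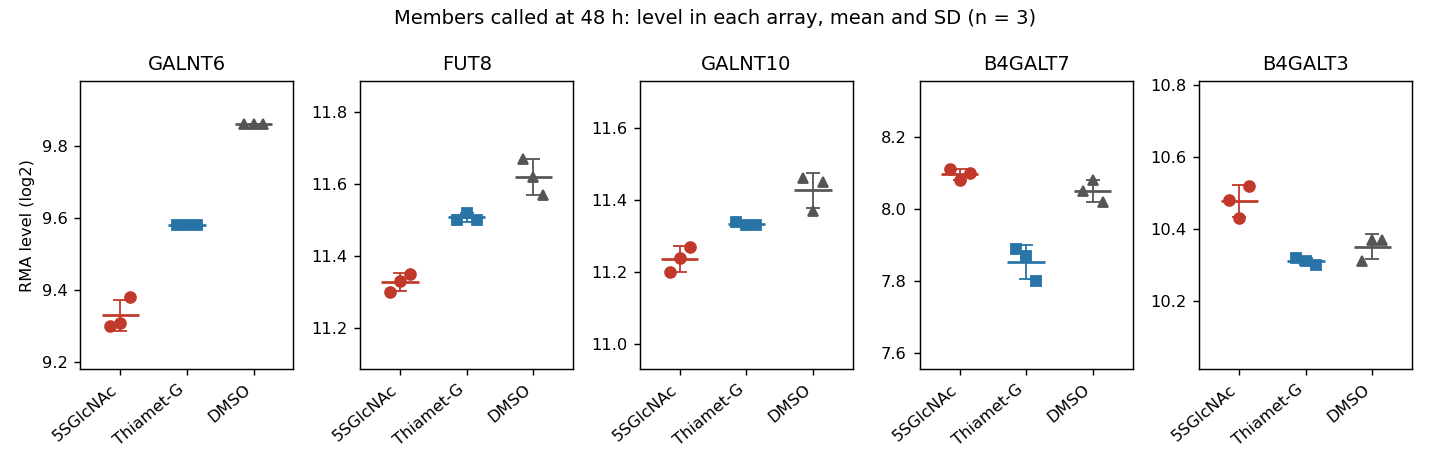
RMA level (log2, vertical axis) at 48 h of the 5 glycosyltransferase genes called in any comparison, by treatment (5SGlcNAc, Thiamet-G, DMSO). Points are single arrays, horizontal lines the mean and bars the SD (n = 3); axes do not start at 0. GALNT6 lies at 9.30 to 9.38 with 5SGlcNAc, 9.58 with Thiamet-G and 9.86 with DMSO, and B4GALT7 is lowest with Thiamet-G.

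Called members made up 3 of 54, or 5.56%, against 10.2% of all genes tested. By direction, 3 were lower, against 7.32% of all genes, and 0 were higher, against 2.92%. In 4 alternatives 1 member was called higher, B4GALT3 with quantile normalization, with trend and robust variance or without dim genes (adjusted p = 0.0361, 0.0453 and 0.0301) and B3GALT5 with only the arrays of both groups (adjusted p = 0.0421). The share was not above that of the whole array in either direction. At an unadjusted p under 0.05 there were 7 members, or 13.0%, against 25.5% of all genes. Non-overlapping groups were seen for 9 members, or 16.7%, against 31.2% of all genes. Of these 7 were lower with 5SGlcNAc (18.5% of all genes) and 2 higher (12.7% of all genes). The 2 higher ones were B3GALT5 and B4GALT3. The median difference over the members was -0.02, beside 0.01 over all genes, with 30 members below 0, 23 above and 1 at 0.

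The sequences before the starts of FUT8, GALNT10 and B4GALT7 are shown, as these members were called against DMSO at 48 h and had a promoter entry. GALNT6 and B4GALT3 are given by name only. GALNT6 had no such entry, and B4GALT3 was not called against DMSO. Each run is the 250 bases before the gene start in RefSeq's annotation of GRCh38.p14, on the plus strand, and capitals mark GC boxes, the letters GGGCGG or the reverse complement CCGCCC, which SP1-type factors are known to bind. Neighbouring matches can overlap. FUT8 lies at chr14:65410342-65410591, GALNT10 at chr5:154190483-154190732 and B4GALT7 at chr5:177599882-177600131.
FUT8: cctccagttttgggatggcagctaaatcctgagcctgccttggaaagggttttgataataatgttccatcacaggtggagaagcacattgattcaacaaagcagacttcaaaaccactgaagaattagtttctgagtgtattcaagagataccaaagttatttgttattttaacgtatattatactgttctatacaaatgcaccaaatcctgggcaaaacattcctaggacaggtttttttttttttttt
GALNT10: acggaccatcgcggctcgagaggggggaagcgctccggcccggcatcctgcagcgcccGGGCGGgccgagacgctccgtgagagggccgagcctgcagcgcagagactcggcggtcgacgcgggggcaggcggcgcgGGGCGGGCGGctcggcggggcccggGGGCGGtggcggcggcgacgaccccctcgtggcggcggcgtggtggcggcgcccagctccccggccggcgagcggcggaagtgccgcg
B4GALT7: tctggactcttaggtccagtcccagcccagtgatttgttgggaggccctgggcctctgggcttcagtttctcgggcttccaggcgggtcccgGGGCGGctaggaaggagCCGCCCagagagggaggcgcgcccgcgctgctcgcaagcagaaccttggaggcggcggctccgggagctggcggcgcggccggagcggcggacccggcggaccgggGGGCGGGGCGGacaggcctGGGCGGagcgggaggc

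The FUT8 window was 36.0% G and C and held no GC box. The GALNT10 window was 82.4% G and C with 4 GC boxes, and the B4GALT7 window was 74.4% G and C with 5. Of the 54 members, 41 had an entry in the table. A GC box was present in 27 of these 41, or 65.85%, against 42.31% of all 27305 promoter windows and 56.0% of the 15842 windows of protein-coding genes. The median G and C content was 65.6% over members, 58.0% over all windows and 62.4% over protein-coding ones. The series title names NRF2, whose antioxidant response element has the core TGACNNNGC. On either strand this core was in 4 of 41 member windows (B3GALT1, B3GALT2, FUT6 and GALNT1), or 9.76%, against 11.03% of all windows and 11.5% of protein-coding ones. The Golgi stress element ACGTGGC was in 1 of 41, that of B4GALT2, or 2.44%, against 2.85% and 3.36%. These are matches of letters, counted without a test.

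Families without a called member are represented by the gene with the smallest p for 5SGlcNAc against DMSO. B3GALT5, which adds galactose to make the precursor of Lewis a structures, read 5.10, 5.07 and 5.09 with 5SGlcNAc and 4.70, 4.91 and 4.88 with DMSO. These groups did not overlap, but the difference of 0.26 ± 0.08 (SE) was not called (limma adjusted p = 0.0652) and the gene was dim. B4GALT3, which adds galactose to N-acetylglucosamine, differed by 0.13 (adjusted p = 0.0837). ST8SIA3, which links sialic acid to sialic acid, differed by 0.17 (adjusted p = 0.149). The differences of ST3GAL5, the synthase of ganglioside precursors, ST6GALNAC5, which sialylates gangliosides, MGAT4B, an N-glycan branching enzyme, and B3GNT4, a chain-extending enzyme, were -0.11, -0.19, -0.10 and -0.03 in that order, and none was called.

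**Figure D2:**
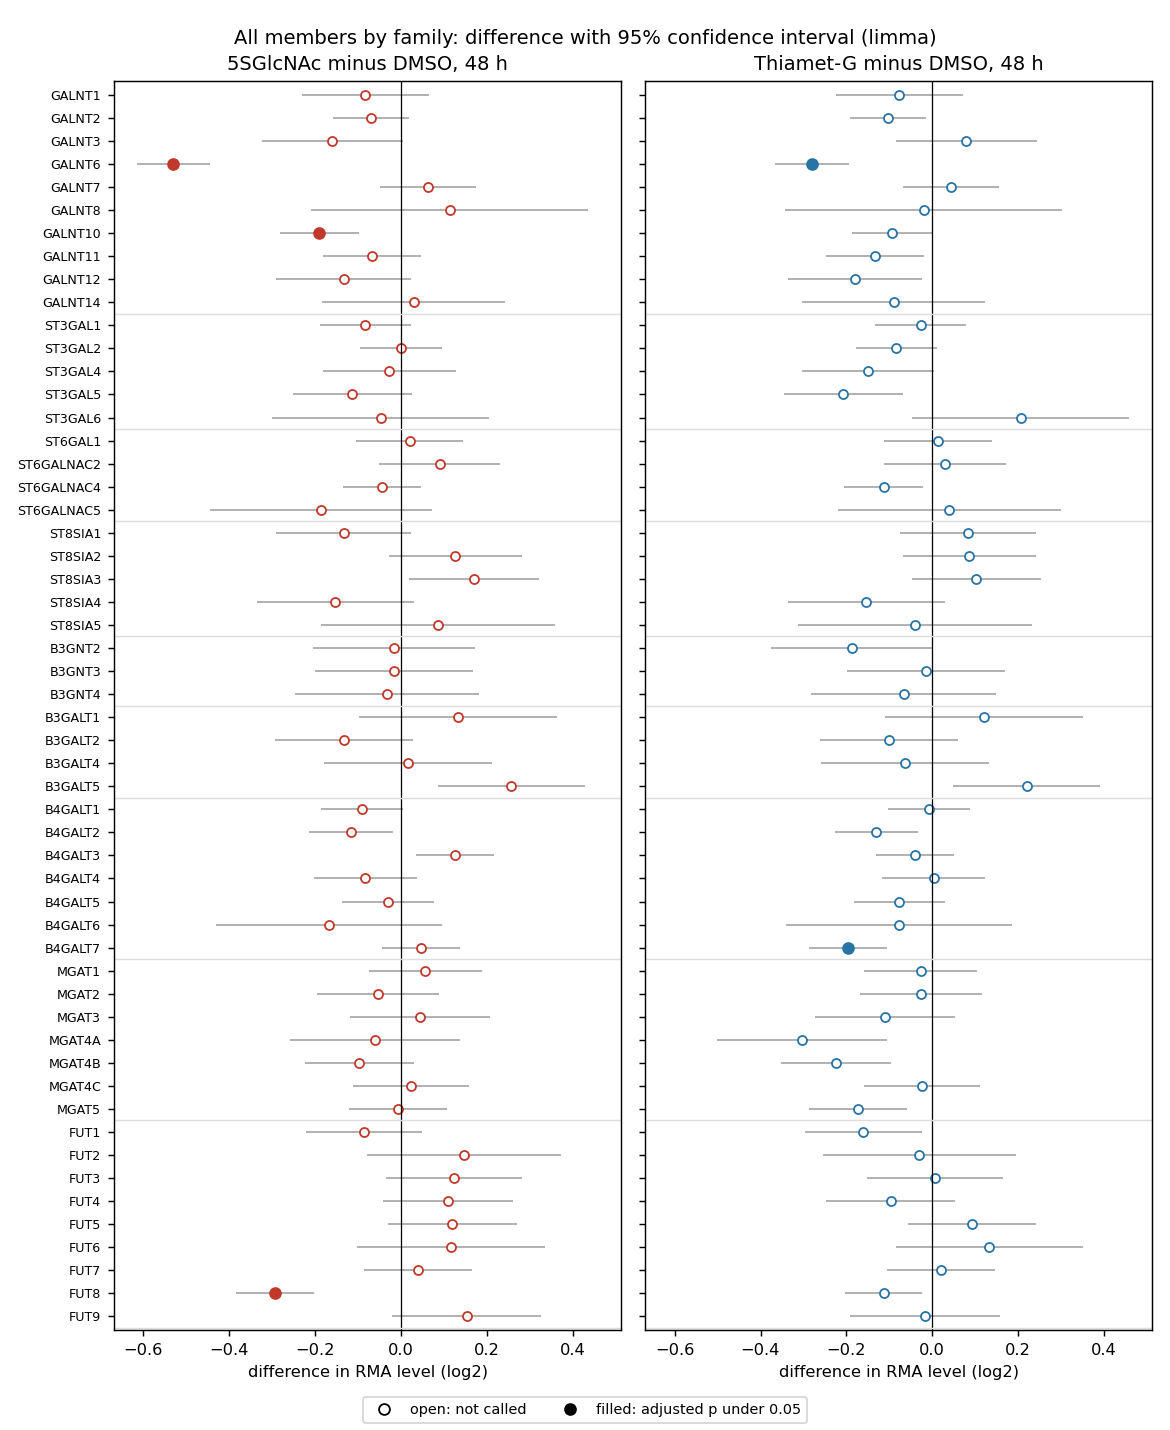
Difference in RMA level (log2, horizontal axis) from DMSO at 48 h for each of the 54 genes, ordered by family, with 5SGlcNAc on the left and Thiamet-G on the right. Points are limma estimates from 3 arrays per group, bars 95% confidence intervals and filled points calls at an adjusted p under 0.05. The 5SGlcNAc panel has 3 filled points, GALNT6, GALNT10 and FUT8, and the Thiamet-G panel has 2, GALNT6 and B4GALT7; all lie left of 0.

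After 48 h, 2 members were lower with Thiamet-G than with DMSO, GALNT6 and B4GALT7, the enzyme that adds the first galactose of the linker joining glycosaminoglycan chains to proteoglycans. GALNT6 read 9.58 in all 3 Thiamet-G arrays and 9.86 in all 3 DMSO arrays, a fall of 0.28 ± 0.04 (SE, n = 3 each, limma adjusted p = 0.00788). B4GALT7 read 7.89, 7.87 and 7.80 with Thiamet-G and 8.05, 8.08 and 8.02 with DMSO. The groups did not overlap in either gene. B4GALT7 fell by 0.20 ± 0.04 (limma adjusted p = 0.0338), and its second probe set fell by 0.26 (adjusted p = 0.0283 over all probe sets). The call of B4GALT7 was lost in 11 of 16 alternatives, among them each DMSO array left out, with adjusted p-values of 0.0945, 0.117 and 0.0835 without DMSO replicates 1, 2 and 3, and of 0.0632 and 0.103 without Thiamet-G replicates 1 and 3.

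The 2 called members were 3.70% of 54, against 3.49% of all genes. Both were lower, against 3.01% of all genes, and 0 were higher, against 0.476%. At an unadjusted p under 0.05 there were 15 members, or 27.8%, against 19.8% of all genes. Members whose arrays did not overlap between Thiamet-G and DMSO numbered 15, or 27.8%, against 21.5% of all genes. Of these 14 were lower with Thiamet-G (15.1% of all genes) and 1, B3GALT5, higher (6.37% of all genes). Of the 54 members, 38 were below 0, or 70.4%, against 53.6% of all genes, and the median difference was -0.05 beside -0.01. All 3 B3GNT genes were below 0 with Thiamet-G. So were all 7 MGAT genes, the N-glycan branching family, with a median of -0.11, and none of either family was called. The MGAT gene nearest 0 was MGAT4C, at -0.02. Array medians were 7.68, 7.72 and 7.71 with Thiamet-G and 7.76, 7.73 and 7.74 with DMSO. The sign of differences near 0 can therefore depend on the scaling. The MGAT genes nearest the threshold were MGAT4B, with -0.22 ± 0.06 (limma adjusted p = 0.0695), and MGAT4A, with -0.30 ± 0.09 (adjusted p = 0.105). MGAT5 came next, with -0.17 ± 0.05 (adjusted p = 0.109).

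MGAT4B read 9.88, 9.93 and 9.91 with Thiamet-G and 10.26, 10.04 and 10.09 with DMSO. MGAT5, which starts the branch that can carry long polylactosamine chains, read 9.67, 9.69 and 9.76 with Thiamet-G and 9.84, 9.89 and 9.91 with DMSO. In both, every Thiamet-G array lay below every DMSO array.

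The inhibitors have opposite actions on O-GlcNAc, and their effects on the members were next compared directly. Between 5SGlcNAc and Thiamet-G, 4 members differed, or 7.41%, against 13.7% of all genes. By direction 2 were higher with 5SGlcNAc, against 6.87% of all genes, and 2 lower, against 6.79%. At an unadjusted p under 0.05 there were 11 members, or 20.4%, against 27.8% of all genes. GALNT6 differed by -0.25 ± 0.04 (SE, limma adjusted p = 0.00294), so that its order was 5SGlcNAc, Thiamet-G, DMSO from low to high, with each neighbouring pair past the threshold. FUT8 was also lower with 5SGlcNAc (-0.18 ± 0.04, adjusted p = 0.0183). Its Thiamet-G arrays read 11.50, 11.52 and 11.50, between the other groups and overlapping neither, yet Thiamet-G against DMSO was not called (-0.11, adjusted p = 0.166).

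The galactosyltransferases B4GALT7 and B4GALT3 were higher with 5SGlcNAc than with Thiamet-G. B4GALT7 read 8.11, 8.08 and 8.10 with 5SGlcNAc, above every Thiamet-G array, a difference of 0.24 ± 0.04 (adjusted p = 0.00471). Its second probe set differed by 0.25. B4GALT3 read 10.48, 10.43 and 10.52 with 5SGlcNAc, against 10.32, 10.31 and 10.30 with Thiamet-G, a difference of 0.17 ± 0.04 (adjusted p = 0.0259). The B4GALT3 call was lost in 6 of 16 alternatives, among them 5SGlcNAc replicate 1 or 3 (0.0824 and 0.0907) or Thiamet-G replicate 1 or 3 (0.0579 and 0.0708) left out. The FUT8 call was lost without 5SGlcNAc replicate 1 or 2 (0.0732 and 0.0522). Non-overlapping arrays were found for 14 members, or 25.9%, against 29.3% of all genes. Of these 10 were higher with 5SGlcNAc (16.1% of all genes) and 4 lower (13.2% of all genes).

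Among 108 measured genes of 8 neighbouring pathway lists, OGT and OGA included, 14 were called with 5SGlcNAc at 48 h, 4 higher and 10 lower. That is 13.0%, against 10.2% of all genes. Of 15 measured genes of N-glycan precursor assembly and transfer and 7 sugar nucleotide transporters, none was called. Of 11 N-glycan trimming genes, MAN1A2, a Golgi mannosidase, rose by 0.23 and GANAB, a subunit of glucosidase, fell by 0.21. Of 11 genes of other O-glycan and glycolipid steps, GCNT3, which branches mucin-type cores, rose by 0.44 (adjusted p = 0.00636). Of 20 proteoglycan genes, 3 fell, namely CSGALNACT1, which starts chondroitin chains (-0.58), XYLT2, which adds the xylose of the linker (-0.28), and EXT1, a heparan sulphate polymerase (-0.15).

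Of 13 sugar nucleotide genes, UGDH, which makes UDP-glucuronic acid, rose by 0.31, while GNE, the entry enzyme of sialic acid synthesis, and PMM1, a phosphomannomutase, fell by 0.22 and 0.18. Of 19 Golgi structure genes, GOLPH3L, a relative of the glycosyltransferase-retaining protein GOLPH3, and GOLGB1, a golgin, fell by 0.25 and 0.21. Of 12 other O-linked sugar genes, which include OGT and OGA, RFNG, a modifier of Notch, fell by 0.24. List medians ran from -0.05 to 0.04, beside 0.01 over all genes.

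With Thiamet-G, 9 of the same 108 genes were called, or 8.33%, against 3.49% of all genes, with 1 higher, OGA, and 8 lower. OGT was counted as lower from its brightest probe set (-0.24). Its other probe sets differed by 0.17, 0.09, 0.15 and 0.12, from the second to the fifth, and were not called over all probe sets. The other genes that fell were ALG6, which glucosylates the lipid-linked precursor (-0.25), and MAN1B1 (-0.27) and MAN1A2 (-0.19) among trimming mannosidases. EXT2 (-0.29) and CHPF2 (-0.29) among proteoglycan polymerising enzymes, SLC35A5 (-0.27) and the golgin GOLGA5 (-0.23) fell too. MAN1A2 differed by 0.42 between 5SGlcNAc and Thiamet-G (adjusted p = 0.000426), with 0.23 and -0.19 against the same DMSO arrays. None of the 11 O-glycan core genes and none of the 13 sugar nucleotide genes was called with Thiamet-G.

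Marker levels moved with 5SGlcNAc as well. Of 12 luminal epithelial markers 3 fell, or 25%, against 7.32% of all genes lower. They were CLDN7 (-0.48), KRT19 (-0.42) and CDH1 (-0.29), and the mean level over the list was 9.12 to 9.13 with 5SGlcNAc, 9.27 to 9.30 with Thiamet-G and 9.25 to 9.31 with DMSO. Of 7 mesenchymal markers 1 fell, or 14.3%, namely S100A4 (-0.54), with list means of 11.97 to 12.01, 12.09 to 12.14 and 12.02 to 12.11. Of 10 fibroblast markers 1 fell, or 10%, namely LUM (-0.49), with list means of 6.36 to 6.52, 6.46 to 6.53 and 6.36 to 6.44, and none of 7 measured haematopoietic markers was called. RMA values have no zero, so no marker was at 0. The part of these markers in the fall of GALNT6, FUT8 and GALNT10 was not tested.

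Over 2 to 24 h, with the 5 times as replicates, no member was called with either inhibitor. The fit averaged effects over early and late times, so it cannot show that members were unchanged. With 5SGlcNAc against DMSO, 0 members and 0 of all genes (0%) were called. An unadjusted p under 0.05 was found for 2 members, or 3.70%, and 523 genes, or 4.37%. With Thiamet-G against DMSO, again 0 members and 0 genes (0%) were called, and 3 members, or 5.56%, and 1108 genes, or 9.26%, had an unadjusted p under 0.05. The member with the smallest p there was ST6GALNAC5, with 0.36 ± 0.10 (SE, adjusted p = 0.302). Between 5SGlcNAc and Thiamet-G 0 members were called, against 0.284% of all genes, and 5 members, or 9.26%, had an unadjusted p under 0.05, against 13.3% of all genes.

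GALNT6 differed from DMSO by -0.07 ± 0.08 over these times with 5SGlcNAc and by 0.00 ± 0.08 with Thiamet-G. Its single arrays did not keep 1 direction. At 8 h it read 9.35 with 5SGlcNAc and 9.50 with Thiamet-G, against 9.12 with DMSO, so that both differences, 0.23 and 0.38, rest on the same DMSO array. At 24 h it read 9.10 with 5SGlcNAc and 9.28 with Thiamet-G, against 9.55 with DMSO, differences of -0.46 and -0.28. Those 24 h differences have the sign of the 48 h ones but come from 1 array each and have no test.

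FUT8 at 24 h read 11.14 with 5SGlcNAc and 11.16 with Thiamet-G, against 11.24 with DMSO, and GALNT10 read 11.28 and 11.26, against 11.32. B4GALT7 at 24 h read 7.93 with 5SGlcNAc, 7.68 with Thiamet-G and 7.96 with DMSO, so the Thiamet-G array was the low one there too. Over the members, the range of the 3 arrays of 0 h had a median of 0.147 and a maximum of 0.669. GALNT10 differed from DMSO by at most 0.10 in either direction at 2 to 24 h, within that median, and FUT8 exceeded it at 8 h, with 0.17 for 5SGlcNAc and 0.31 for Thiamet-G.

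**Figure D3:**
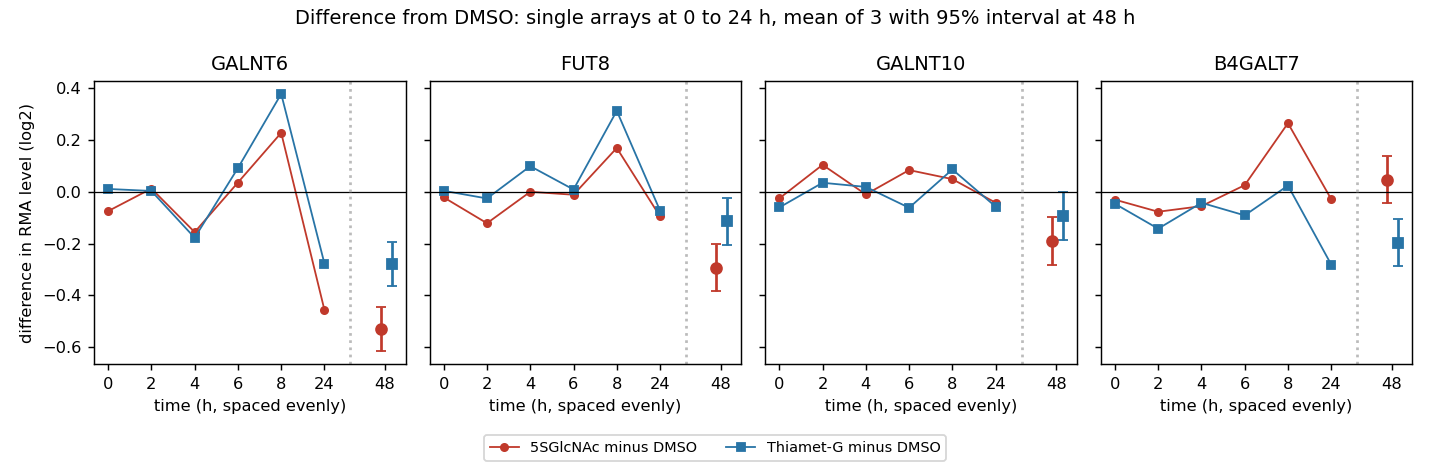
Difference in RMA level from DMSO (log2, vertical axis) by time (h, spaced evenly) for GALNT6, FUT8, GALNT10 and B4GALT7, with 5SGlcNAc and Thiamet-G as separate symbols. Points of 0 to 24 h are single arrays against 1 DMSO array; points of 48 h, right of the dotted line, are means of 3 with 95% confidence intervals from limma. GALNT6 turns from 0.23 and 0.38 at 8 h to -0.46 and -0.28 at 24 h.

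Whether an effect at 48 h differed from the mean effect over 2 to 24 h was tested in 1 fit. For 5SGlcNAc, GALNT6 was the 1 member called, with a difference between effects of -0.46 ± 0.11 (SE, limma adjusted p = 0.0442), or 1.85% of members against 1.78% of all genes, and 1.41% in the lower direction. Without the 4 h arrays the difference was -0.49 with an adjusted p of 0.0598. GALNT10 (-0.23, adjusted p = 0.0525) and FUT8 (-0.28, adjusted p = 0.0539) were not called. For Thiamet-G, 0 members and 0 genes (0%) were called. An unadjusted p under 0.05 was found for 7 members, or 13.0%, and 773 genes, or 6.46%. The member with the smallest adjusted p was MGAT4B (-0.26, adjusted p = 0.365).

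Several members changed over time in all treatments together. Tested over 0 to 24 h with the 3 series as replicates, 7 of 54 members changed, or 13.0%, against 18.2% of all genes. They were the sialyltransferases ST3GAL6, ST6GALNAC5 and ST6GALNAC4, the branching enzymes MGAT5 and MGAT4A, FUT8 and GALNT3, and the sialyltransferases had the largest changes. The ACTB 3' minus 5' signal, a measure of RNA integrity, was 1.24 in the Thiamet-G and 1.64 in the DMSO array of 4 h. It was between 0.42 and 0.95 in the other arrays of 0 to 24 h and between 0.15 and 0.39 at 48 h. The same signal of GAPDH did not set the Thiamet-G and DMSO arrays of 4 h apart. It was 0.234 and 0.226 in them, within 0.142 to 0.271 over all arrays of 0 to 24 h.

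ST6GALNAC5, known for its part in spread of breast cancer to the brain, averaged 7.05, 6.89, 6.56, 6.19, 6.47 and 6.39 at 0, 2, 4, 6, 8 and 24 h (n = 3). At 6 h it read 6.33 with 5SGlcNAc, 6.41 with Thiamet-G and 5.82 with DMSO, against 6.93, 7.03 and 7.19 at 0 h in the same order of treatments. No array of 6, 8 or 24 h reached the lowest of 0 h. It fell by 0.86 ± 0.14 at 6 h (SE, limma adjusted p = 0.00492), by 0.58 at 8 h (adjusted p = 0.0260) and by 0.66 at 24 h (adjusted p = 0.00801). The gene was at or under the 40th percentile of levels at 48 h.

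ST3GAL6, which adds sialic acid to terminal galactose and has a part in selectin ligands, averaged 8.82, 8.51, 8.23, 8.62, 8.73 and 8.69 over the same times. Its 4 h arrays read 8.15 with 5SGlcNAc, 8.44 with Thiamet-G and 8.10 with DMSO, against 8.88, 8.89 and 8.68 at 0 h, and did not overlap with those. It fell by 0.59 ± 0.09 at 4 h (limma adjusted p = 0.00318). Its second probe set moved by as much as -0.56, the third by -0.22 and the fourth by -0.16. The ACTB signal of the 5SGlcNAc array of 4 h was 0.89, and in each series the 4 h array had the highest. Without the DMSO and Thiamet-G arrays of 4 h the F test was not called. The difference at 4 h, then from a single array, was -0.62. The part of RNA integrity in the fall was not tested.

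**Figure D4:**
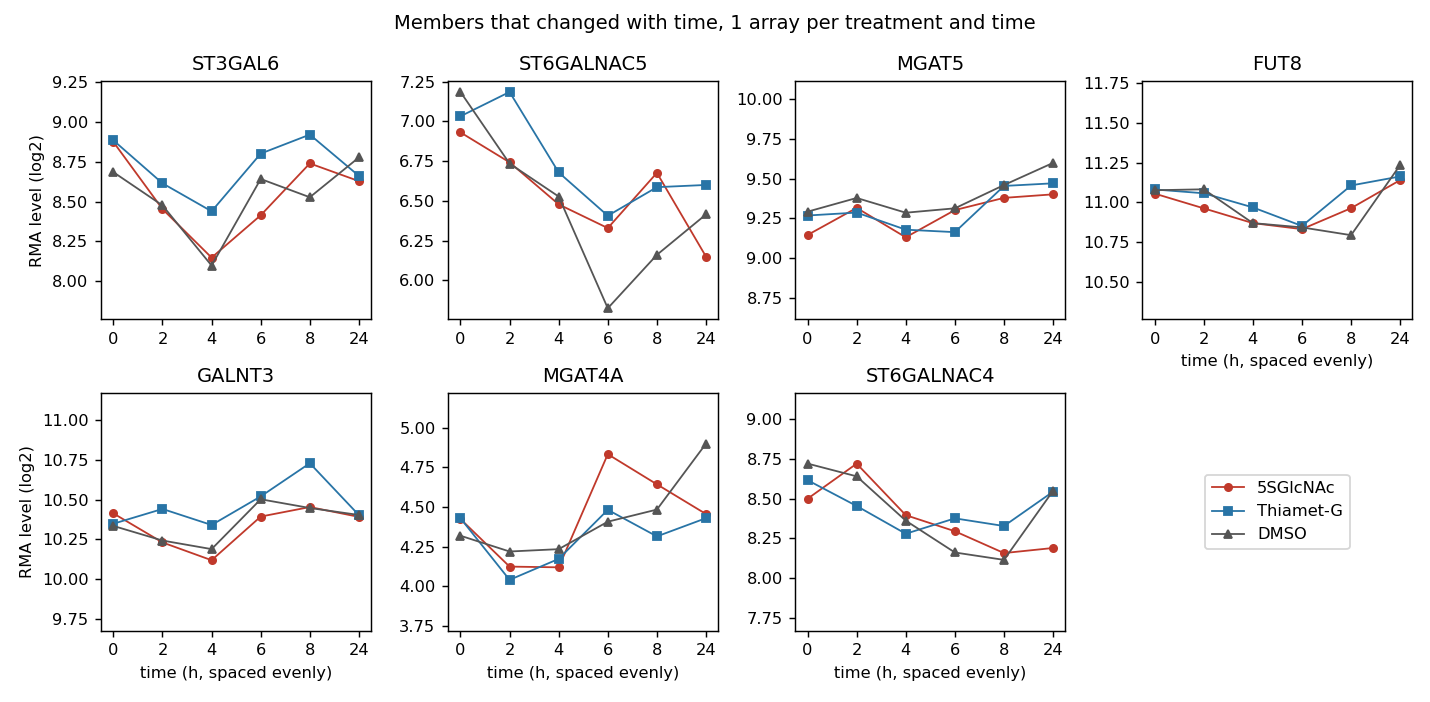
RMA level (log2, vertical axis) by time (h, spaced evenly) of the 7 glycosyltransferase genes that changed over 0 to 24 h, 1 array per point, with a line for each treatment (5SGlcNAc, Thiamet-G, DMSO). Panels span equal log2 ranges and do not start at 0. ST3GAL6 is lowest at 4 h in each series, and every ST6GALNAC5 array of 6 to 24 h lies below the 0 h arrays, the lowest, 5.82, in DMSO at 6 h.

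ST6GALNAC4, which sialylates O-glycans that already carry sialic acid, averaged 8.61, 8.60, 8.34, 8.28, 8.20 and 8.43, and fell by 0.41 ± 0.10 at 8 h (limma adjusted p = 0.0277). MGAT5 averaged 9.24, 9.33, 9.20, 9.26, 9.43 and 9.49, and rose by 0.26 ± 0.06 at 24 h (limma adjusted p = 0.00952). Its dimmer second probe set differed by 0.10 at 24 h and was not called. FUT8 had its lowest mean at 6 h, with 10.83 in 5SGlcNAc, 10.85 in Thiamet-G and 10.84 in DMSO arrays, against 11.06, 11.08 and 11.08 at 0 h (F test adjusted p = 0.0163), although its DMSO array of 8 h was lower still, at 10.79. The mean of MGAT4A was lowest at 2 h (-0.26) and that of GALNT3 highest at 8 h (0.18, with 10.73 in the Thiamet-G array against 10.45 in both others), with F test adjusted p-values of 0.0294 and 0.0253. The GALNT3 call was lost in 6 of 12 alternatives, among them the mean of its probe sets (adjusted p = 0.342), and its largest difference from 0 h was 0.08 without the Thiamet-G series.

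Against 0 h, the members called were 0 of 54 at 2 h (0.527% of all genes), 1 at 4 h (3.29%), 1 at 6 h (4.53%), 2 at 8 h (6.37%) and 4 at 24 h (9.96%). The calls of 4, 6 and 8 h were all lower, against 1.96%, 2.2% and 2.48% of all genes in that direction. At 24 h ST6GALNAC5 and GALNT10 fell (5.12% of all genes) and MGAT5 and GALNT1 rose (4.83% of all genes). GALNT1, a broadly expressed starter of O-glycans, rose by 0.22 ± 0.06 (limma adjusted p = 0.0278) and GALNT10 fell by 0.20 ± 0.05 (adjusted p = 0.0279). The second probe set of GALNT10 differed by -0.02 at 24 h. The 24 h calls of GALNT1 and GALNT10 were each lost in 4 of 12 alternatives. For GALNT1 these included quantile normalization (limma adjusted p = 0.0538). With a series left out, 2 series remain per time, and the members called by the F test numbered 0 without the DMSO series and 1 without either other series. At 24 h they numbered 2 without the DMSO series and 0 without the 5SGlcNAc or the Thiamet-G series.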

How the data were processed

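Deposited values were log2 levels per probe set made by the authors with RMA, per the submitters' processing notes; the version is not given in the sources used here. RMA equalises the arrays processed together, which can hide a change shared by most genes. The table held 22277 probe sets, of which 62 were controls, 1043 were annotated to several genes and 19064 to 1. For each of 11963 genes the brightest probe set at 48 h was used in every fit. Linear models were fitted in limma 3.58.1 (R 4.3.3) with moderated variances, and two-sided p-values were adjusted by Benjamini-Hochberg over all genes, at a threshold of 0.05.

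The 9 arrays of 48 h were fitted together. The 15 arrays of 2 to 24 h had time as a block, the 18 arrays of 0 to 24 h had the treatment series as a block, and the difference between effects used 24 arrays with time as a block. The fits were tested on simulated data with independent noise in each gene and array, so a spread shared between arrays was not covered. Precision is limited by how few arrays there were, and the standard error of a 48 h difference had a median of 0.0667 over the 54 genes.

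Every member past the threshold in any test was named, and for each family without one, the member with the smallest p for 5SGlcNAc against DMSO at 48 h. Other members were named for near misses or non-overlap after their values were seen. Of other genes, OGT, OGA and up to 3 called genes per pathway list were named. The members, lists, tests and most alternatives were chosen with earlier results of these data known. Promoter windows came from RefSeq for GRCh38.p14. Alternatives were other normalisations, probe set rules, variance models, a filter on dim genes, blocks, and arrays, times or series left out. Not counting the ST6GALNAC genes as members was added after seeing the data.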

Additional observations from a re-analysis of the deposited data

Results flagged for a closer look

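GALNT6 was singled out because its response to 5SGlcNAc differed between the sets of times when that difference was itself tested. Its difference between 5SGlcNAc and DMSO was -0.53 at 48 h and -0.07 as the mean over 2 to 24 h, a gap of -0.46 (limma adjusted p = 0.0442). Each of the 3 arrays of 48 h lay below DMSO, and of the 5 earlier times 2 did, 4 and 24 h. The gap rests on comparisons within sets that were normalised apart, and without 4 h its adjusted p was 0.0598.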

How the results depend on the processing

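Of 276 alternative values for called members, 211 kept direction and call, 65 kept direction and lost the call, and 0 reversed. Of 129 alternative counts, 101 stayed within 1.5 times the reported count. GALNT6 at 48 h in all 3 comparisons, FUT8 with 5SGlcNAc against DMSO and B4GALT7 between the inhibitors were called in 16 of 16 alternatives each. For the counts below, the cause of each shift was not tested unless fewer arrays or genes entered. Calls over all 11963 genes shifted too. With quantile normalization they went from 417 to 288 with Thiamet-G against DMSO and from 1634 to 1748 between the inhibitors. They went from 2178 to 2414 in the F test and from 213 to 267 for the difference between 5SGlcNAc effects. The member counts below stand without such shares, so a shift cannot be read as particular to the members. With Thiamet-G against DMSO at 48 h, 2 members were called, and the count was 1 with quantile normalization, median centring, each probe set tested, only the 6 arrays of both groups or a replicate block, and 5 without dim genes. Between the inhibitors at 48 h, 4 became 7 with quantile normalization or without dim genes and 2 with a replicate block. The F test over time, with 7, called 13 with trend and robust variance, 13 without dim genes, and 2 without the DMSO and Thiamet-G arrays of 4 h. The difference between 5SGlcNAc effects, with 1, called 3 with quantile normalization, 3 with trend and robust variance and 0 without 4 h. Leaving out 1 array gave 2 to 3 members with 5SGlcNAc against DMSO, 1 to 3 with Thiamet-G against DMSO and 2 to 7 between the inhibitors, the 2 without 5SGlcNAc replicate 1 and the 7 without Thiamet-G replicate 2. Without Thiamet-G replicate 2 the Thiamet-G count was 3, and without any of the other 5 arrays it was 1. Leaving out 1 time gave 0 to 0 in the 3 comparisons over 2 to 24 h. Leaving out a series gave 0 to 1 in the F test and 0 to 2 at 24 h. The replicate numbers at 48 h did not pair arrays, with 9 correlations of deviations between -0.33 and 0.17, of which 2 were over 0.1. The scaling also moved the balance over all genes: with 5SGlcNAc, 71.5% of called genes were lower as deposited, 60.0% with quantile normalization and 58.7% with median centring, and with Thiamet-G 86.3%, 73.6% and 74.5%. Without the ST6GALNAC genes the F test called 5 members and the 24 h comparison 3.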
